A study of Drosophila melanogaster with 24 samples.

Results

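The oxidative phosphorylation genes described here were found by symbol. A gene was a member when the array's annotation paired a probe set with exactly 1 symbol that begins with ND-, UQCR-, COX and a digit, or ATPsyn, and the brightest probe set stood for the gene. This gave 66 genes, from 74 such probe sets, out of 11982 genes with a probe set of 1 symbol. They were 32 genes of complex I, 6 of complex III, 14 of complex IV and 14 of complex V. Of the 66, 48 were general subunits and 18 were testis-type paralogues, whose symbols carry an L after the name of a general subunit. The brightest probe sets of all 66 reached a Signal of 50 on at least 12 of the 24 arrays, the minimum set for testing, and 17 of the paralogues did so through their male arrays. Another 4 probe sets shared a member symbol with a second gene and were left out. Of 83 protein-coding genes in RefSeq (Release 6 plus ISO1 MT) whose symbols fit the rule, 17 had no probe set of their own by this annotation and were not analysed here. These include the mitochondrial genes *COX1*, *COX2* and *COX3*, the core subunits *UQCR-C1* and *UQCR-C2*, and *ATPsynG* and *ND-24*, which are the general partners of *ATPsynGL* and *ND-24L*.

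Transcript abundance was measured in whole bodies of virgin flies of *Drosophila melanogaster*, 3 to 5 days old, at generation 25 of selection. There were 2 lines selected for resistance to alcohol (R1 and R2), 2 lines selected for sensitivity (S1 and S2) and 2 unselected control lines (C1 and C2), all derived from 1 outbred population. Each sex of each line was represented by 2 pools of 15 flies, which made 24 arrays, 12 of males and 12 of females. By the labels of all 24 samples, those of the control lines included, the flies met ethanol vapor before RNA was taken, whereas the study's account of the array experiment names no such exposure.

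Complexes I, III and IV of the inner mitochondrial membrane pass electrons from NADH to oxygen and pump protons, and complex V, the ATP synthase, uses the proton gradient to make ATP. Most of their subunits are encoded in the nucleus, and indirect flight muscle, which is packed with large mitochondria, is among the tissues richest in their transcripts. In *Drosophila*, many nuclear genes of mitochondrial proteins have a second copy, often a retroposed one, that is transcribed mainly in the testis. During spermiogenesis the mitochondria of the spermatid fuse into the nebenkern, which then extends along the growing sperm tail.

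Signal, the MAS5 measure of probe set intensity, had been scaled by the authors to the same trimmed mean on every array, and the array medians, with control probe sets left out, ranged between 130.9 and 149.8 for males and between 55.7 and 81.0 for females. Differences were taken on the log2 scale with a floor of 1, with 1 mean per line and sex in limma, and adjusted over the 11857 probe sets tested. Testis genes were present in males and near background in females, with a summed Signal of 25 listed testis genes between 72344 and 101392 on male arrays and between 928 and 1395 on female arrays. Of the tested testis genes, 22 were higher in males, and 1, *twe*, a phosphatase of the meiotic cell cycle, was higher in females. The 3 defining markers of indirect flight muscle, the myofibril genes *fln*, *TpnC4* and *Act88F*, summed to a Signal between 4511 and 50460.1 on male arrays and between 2511 and 55320.5 on female arrays, and none was at 0 in any array. The 2 pools of S1 females differed most. In pool 2 of S1 females *fln* had a Signal of 17847, against 438 in pool 1, and the 48 general subunits were a median of 1.07 higher on the log2 scale, 47 of them in the same direction. In the other 11 groups of line and sex this median ran from -0.17 to 0.20. Results on the general subunits are therefore given with and without the pools of S1 females. The labels do not say that pools came from separate cultures, so p-values measure only the spread between these pools.

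The testis-type paralogues were far higher in males than in females, whereas of the 13 general partners with a probe set only *ND-B14.5A* passed the test, and their differences ran from -0.36 for *sun* to 0.45 for *ND-B14.5A*. Of 18 paralogues, 17 were higher in males at an adjusted p under 0.001, the threshold used throughout, and in all 17 the lowest male array lay above the highest female array. These 17 reached the minimum Signal through male arrays alone, so that a difference toward males was built into their being tested. The minimum removed none of the 18, however. The counts and medians of the paralogues describe the size of this difference only. Their adjusted p-values set it against the spread between pools and are no separate support for it. Over all tested probe sets, 36.0% were higher in males, 42.3% were higher in females and 52.6% had male and female arrays that did not overlap. The median males minus females difference was 6.15 for the 18 paralogues and 0.17 for the 48 general subunits, against -0.041 for all tested probe sets. For 13 of the paralogues every female array was below a Signal of 50, so that only a bound can be given. It is the geometric mean of the 12 male Signals over 50, and it ran from 6.80-fold for *ND-51L1* to 65.7-fold for *COX4L*. With these 13 at their bound, the median difference of the 18 paralogues was 3.95. Testis is present in males only, so that testis content and sex cannot be told apart. In whole flies, fewer cells of a type and less RNA per cell cannot be told apart.

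**Figure D1:**
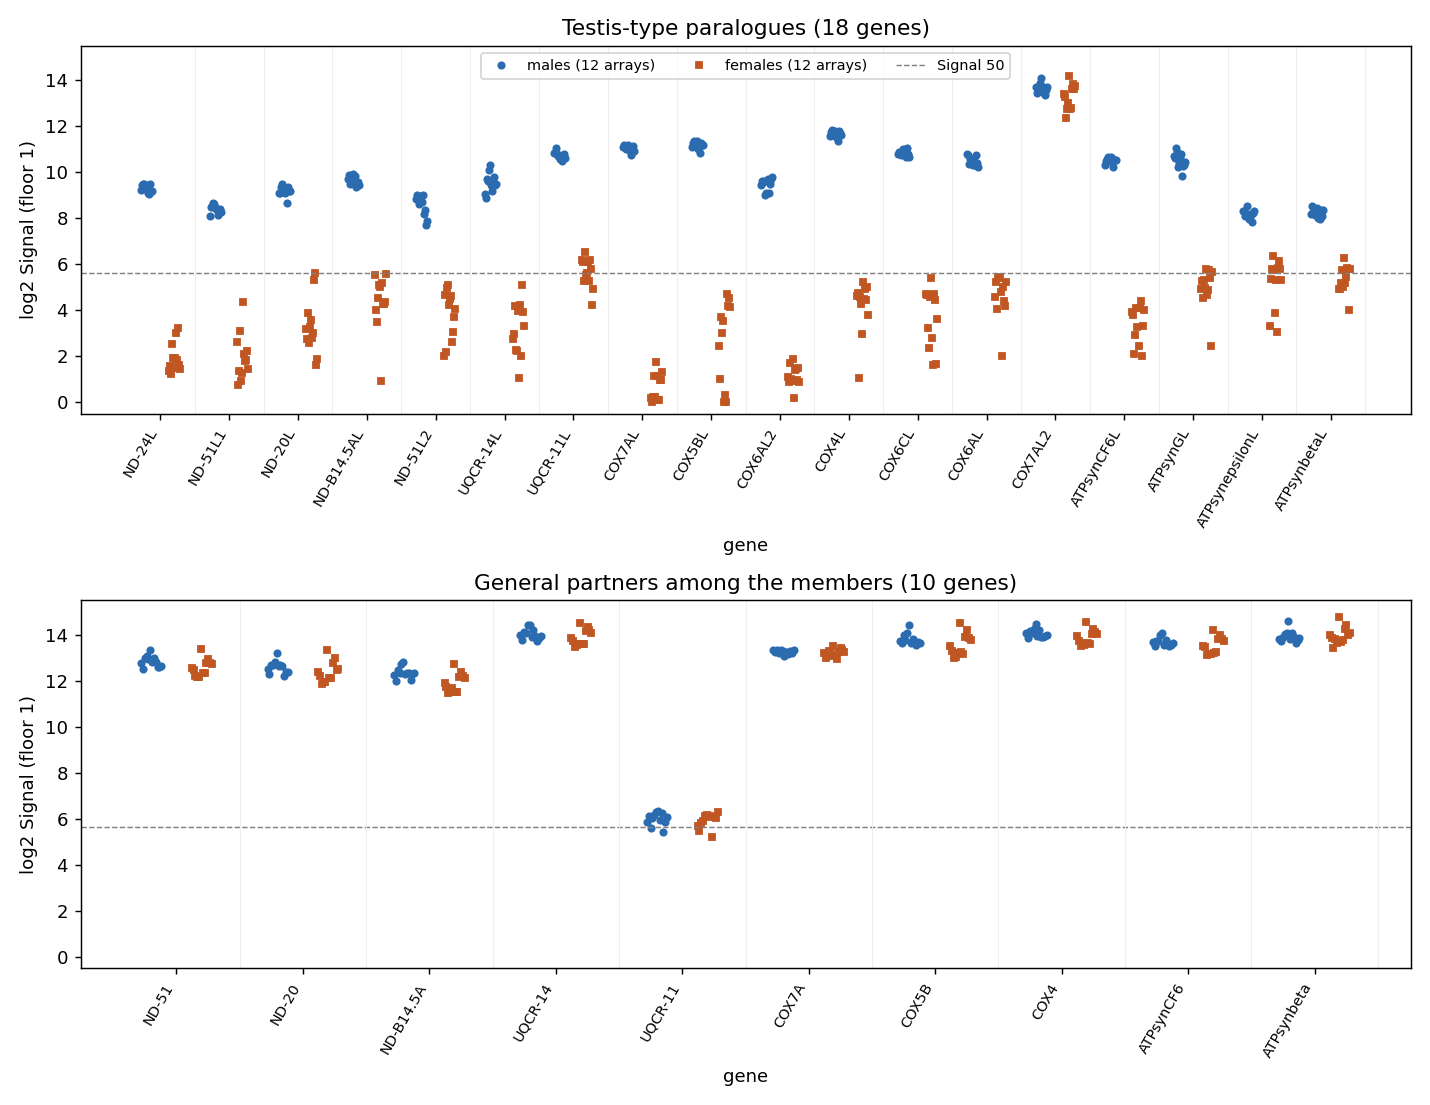
Each point is 1 array, with log2 Signal (floor 1) on the vertical axis, for the 18 testis-type paralogues (upper panel) and for the 10 general partners that are members (lower panel), males in blue to the left of females in orange. All paralogues except *COX7AL2* separate the sexes, with a lowest male Signal of 207 and most female arrays below the dashed line at 50, whereas the partners overlap.

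Complex I takes electrons from NADH. *ND-24L*, the paralogue of the core subunit ND-24, had a Signal of 535 to 721 in males (median 641), against 2.36 to 9.3 in females (median 3.34), which was at least 12.8-fold higher in males. *ND-51L1* and *ND-51L2* are both copies of *ND-51*, which encodes the subunit that binds NADH and flavin. *ND-51L1* had 273 to 406 in males (median 342), against 1.69 to 20.9 in females (median 3.55), and *ND-51L2* had 207 to 522 in males (median 435), against 4.1 to 34.5 in females (median 17.7). Both were below 50 in every female array, and the bounds were at least 6.8-fold for *ND-51L1* and at least 7.74-fold for *ND-51L2*. *ND-51* itself had 5933 to 10258 in males (median 7196), against 4656 to 10683 in females (median 5854), and the sexes overlapped. *ND-20L*, the copy of the iron-sulphur subunit ND-20, had 406 to 718 in males (median 593), against 3.1 to 49.1 in females (median 8.58), or at least 11.8-fold more in males, and its 2 highest female arrays were those of C1 (39.6 and 49.1). *ND-B14.5AL*, a copy of the accessory subunit ND-B14.5A, had 664 to 962 in males (median 782), against 1.91 to 48.6 in females (median 22.1), or at least 16-fold more in males. *ND-20* had 4804 to 9494 in males (median 6404), against 3726 to 10449 in females (median 5041), and the sexes overlapped. Adjusted p-values of these 5 paralogues from limma ran from 4.49e-16 for *ND-20L* to 2.11e-10 for *ND-B14.5AL*. With female values near background they do not rank the genes.

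Complex III passes electrons from ubiquinol to cytochrome c. *UQCR-14L* had a Signal of 480.2 to 1283 in males (median 741), against 2.08 to 34.2 in females (median 8.88), which was at least 15-fold higher in males, whereas its partner *UQCR-14* had 13561 to 22045 in males (median 16169), against 11338 to 23759 in females (median 14235). *UQCR-11L* had 1431 to 2116 in males (median 1746), against 18.7 to 92.6 in females (median 52.7), a difference of 5.09 ± 0.13 (standard error) on the log2 scale. Its female arrays lay on both sides of 50, with 6 of 12 below. The probe set of *UQCR-11* was dim in both sexes, at 43.1 to 82.1 in males (median 66.7), against 37.3 to 79.5 in females (median 66.7), so that this pair rests on a partner near the minimum.

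Complex IV, cytochrome c oxidase, transfers the electrons to oxygen, and it has the most paralogues here, with 7. *COX7AL* had a Signal of 1754 to 2364 in males (median 2146), against 0.937 to 3.41 in females (median 1.56), and was at least 42.1-fold higher in males. Its partner *COX7A*, which in RefSeq is separated from it by 2 protein-coding genes, had 8727 to 10543 in males (median 9986), against 8001 to 11675 in females (median 9586). *COX4L* had 2671 to 3705 in males (median 3307), against 2.05 to 37.9 in females (median 23.4), and *COX5BL* had 1843 to 2649 in males (median 2385), against 0.585 to 26.4 in females (median 9.73), with bounds of at least 65.7-fold and at least 46.7-fold. Their partners *COX4*, the largest nuclear-encoded subunit, and *COX5B*, a zinc-binding subunit, overlapped between the sexes, with differences of 0.18 ± 0.087 and 0.24 ± 0.11. *COX5BL* lies 1 protein-coding gene away from *COX5B*, and these 2 pairs were the only ones of the 18 within 2 genes of each other. *COX6AL* (at least 29-fold) and *COX6AL2* (at least 14.4-fold) are copies of *levy*, the general subunit 6A, and *COX6CL* (at least 36.8-fold) is a copy of *cype*, the general subunit 6C. The male Signal was 1195 to 1789 for *COX6AL*, 514 to 895 for *COX6AL2* and 1623 to 2163 for *COX6CL*, and no female array of the 3 genes passed 44.1. *levy* had 14040.3 to 21214 in males (median 16113), against 11358 to 23289 in females (median 14409), and *cype* had 11562 to 16698 in males (median 13113), against 8437 to 16408 in females (median 10828).

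*COX7AL2* was the exception among the paralogues. It had a Signal of 10550.1 to 17848 in males (median 12787), against 5293 to 18652 in females (median 10327), and the sexes overlapped. The difference of 0.37 ± 0.10 had an adjusted p of 0.00255 and did not pass, although it passed with quantile normalization, with medians set equal and without either or both of the pools of S1 females. Its lowest arrays were those of R2 females (5293 and 6852) and S2 females (6937 and 7061), and its highest was pool 2 of S1 females (18652). Across the 12 female arrays, *COX7AL2* had a correlation of 0.863 with the flight muscle markers, and across the 12 male arrays of 0.692 (Pearson's r, which in both cases includes arrays of the same lines). Its probe set is of the kind that the maker marks as shared by several transcripts. It counted as a paralogue by its symbol, while the overlap of its male and female arrays set it apart from the other 17.

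Complex V has 4 paralogues. *ATPsynCF6L*, a copy of the stalk subunit coupling factor 6, had a Signal of 1209 to 1640.0 in males (median 1491), against 4.06 to 21.5 in females (median 11.9), and was at least 29.4-fold higher in males, while *ATPsynCF6* differed by 0.16 ± 0.087. *ATPsynGL* had 923 to 2137 in males (median 1474), against 5.46 to 55.6 in females (median 35.1), with 9 of 12 female arrays below 50, and a difference of 5.55 ± 0.26. *ATPsynbetaL*, a copy of the catalytic beta subunit, differed by 2.90 ± 0.19, and *ATPsynepsilonL*, a copy of *sun*, by 3.02 ± 0.28. Of 12 female arrays, 7 were below 50 for *ATPsynbetaL* and 6 for *ATPsynepsilonL*, so that these values rest in part on arrays near background and have no set order against the paralogues with bounds. *ATPsynbetaL* had 251 to 377 in males (median 298), against 16 to 78.1 in females (median 39.8), and *ATPsynepsilonL* had 227 to 377 in males (median 291), against 8.4 to 82 in females (median 47.2). *ATPsynbeta* was bright in both sexes, with 12701 to 24575 in males (median 15207), against 11193 to 28043 in females (median 15450.2). The probe set of *sun*, which encodes the epsilon subunit of the F1 central stalk, was dim, with 32.8 to 204 in males (median 117), against 43.1 to 242 in females (median 155).

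Each paralogue was set against its partner by sex within the 6 lines. For 16 pairs with a partner probe set of 1 symbol, the males minus females difference of the partner was subtracted from that of the paralogue in each line. In 15 pairs the result was above 0 in 6 of 6 lines, with an exact two-sided sign-flip p of 0.03125 for each, which is the smallest that 6 lines allow, and which was not adjusted over the pairs. These paralogues reached the minimum Signal through male arrays and were near or below it in females. The sign therefore restates the male-limited Signal and is no separate evidence of it. The mean over lines ran from 2.94 ± 0.51 (SD, n = 6) for *ATPsynbetaL* to 10.31 ± 0.30 for *COX7AL*. The widest spread was that of *ATPsynepsilonL*, at 0.69 to 4.64 over the lines. *COX7AL2* minus *COX7A* was 0.32 ± 0.46 and above 0 in 4 of 6 lines (exact p = 0.1875). For paralogues at background in females these differences depend on the floor, so that their order is not read, and they are smaller on the scale log2(Signal + 50), where the same count of 15 pairs had all lines above 0.

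A male-limited signal was also found within a general subunit. *COX7C*, a small subunit of cytochrome c oxidase, had 2 probe sets. The brighter one had 12305 to 18096 in males (median 13612), against 9822 to 20514 in females (median 11941), and the other had 617 to 785 in males (median 730.3), against 5.08 to 27.2 in females (median 13.3), or at least 14.2-fold more in males, with no overlap. Both were paired with *COX7C* by the array's annotation. In RefSeq, *COX7C* has *COX7CL* as its direct neighbor, a gene with no probe set of its own here, and whether the second probe set reads its transcript was not tested. The other 5 members with several probe sets, *ATPsynbeta*, *ATPsyngamma*, *COX7B*, *ND-ACP* and *ND-B17*, showed no such disagreement, and their tested probe sets differed between the sexes by -0.22 to 0.35.

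Most general subunits differed little between the sexes. Of 48, 46 had a difference above 0, from -0.56 for *ND-B12* to 1.77 for *ND-B8*, and 5 passed the test, all higher in males. That is a smaller share than the 36.0% of all tested probe sets. The count rested on S1 females. Without pool 2 of S1 females, 35 of 48 were higher in males (background 37.5%), without pool 1 it was 14 (background 36.0%), and without both it was 18 (background 36.6%), with none higher in females in any of these fits. The median difference was 0.26, 0.092 and 0.16 in these 3 fits. It also varied between lines. R1 had a median of 0.17, R2 of 0.61, S1 of 0.34 and S2 of 0.50, but it was -0.28 in C1 and -0.12 in C2, so that it was below 0 in both control lines. The scaling mattered too. With quantile normalization, 13 general subunits were higher in males and 3 higher in females, with a median of 0.14 against -0.22 for all probe sets, and with the medians of the arrays set equal, 21 were higher in males, with 0.35 against 0.14.

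**Figure D2:**
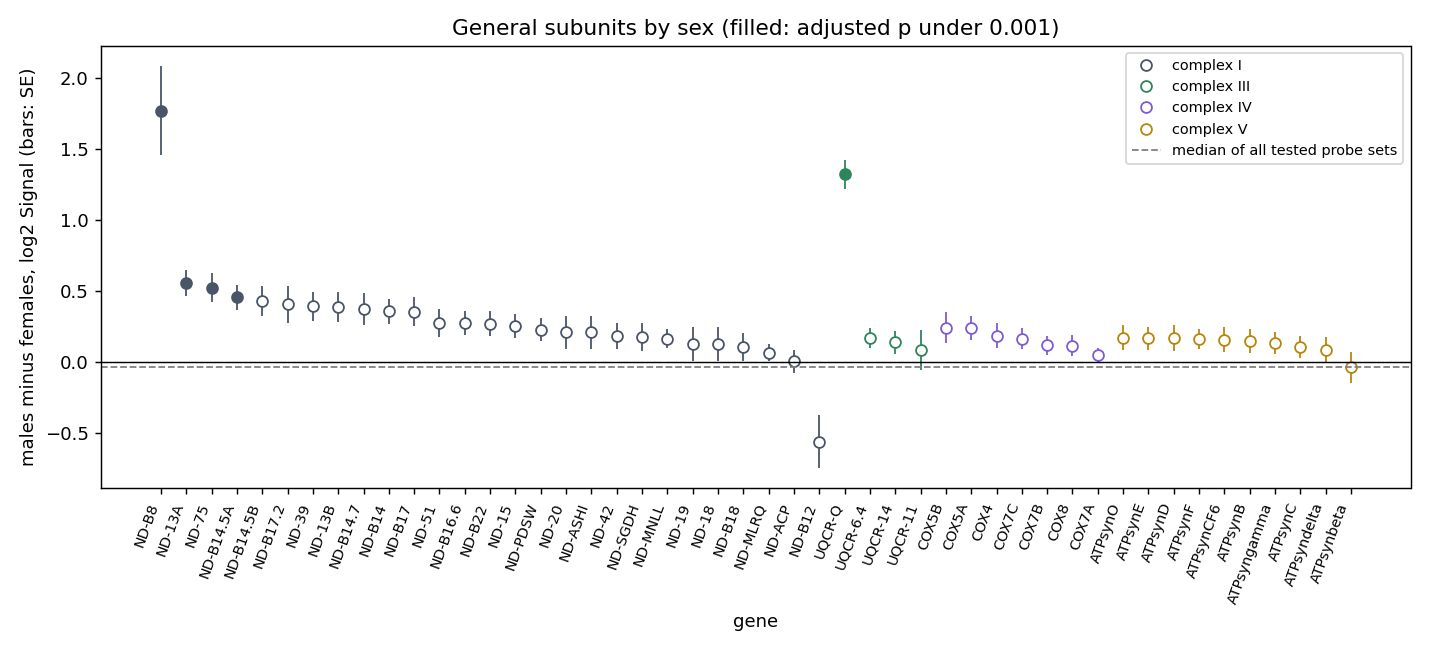
Males minus females difference in log2 Signal of the 48 general subunits, ordered within complexes I, III, IV and V, with bars of 1 standard error from limma and filled points for an adjusted p under 0.001. All but 2 points lie above 0, and *ND-B8* and *UQCR-Q* stand apart from the rest.

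Complex I held 4 of the 5. *ND-B8*, an accessory subunit, had the largest difference, 1.77 ± 0.31 (adjusted p = 5.24e-05), but also a dim and variable probe set, with 262 to 1679 in males (median 908), against 20.4 to 727 in females (median 321), and the sexes overlapped. Its lowest arrays were those of R2 females (46.2 and 20.4) and pool 1 of S1 females (83.8), where the flight muscle markers had mean log2 deviations from the female mean of -1.02, -2.13 and -2.46, and their part in the result was not tested. *ND-13A*, another accessory subunit, had 6130.5 to 9298 in males (median 7349), against 3767 to 8673 in females (median 4598), a difference of 0.56 ± 0.090 (adjusted p = 2.01e-05). *ND-75*, the largest core subunit, had 3281 to 5261 in males (median 3584), against 1899 to 4698 in females (median 2441) and 0.52 ± 0.099 (1.07e-04). The last of the 4 was *ND-B14.5A*, at 0.45 ± 0.089 (1.45e-04), whose male-limited paralogue was described above. *ND-13A*, *ND-75* and *ND-B14.5A* overlapped between the sexes only through the females of S1 pool 2 and of the control lines. At the other end, *ND-MLRQ* (0.063 ± 0.061) and *ND-ACP* (0.0033 ± 0.080) hardly differed, and *ND-B12*, with the dim Signals of 68.5 to 208 in males (median 149.5), against 163 to 319 in females (median 206), had -0.56 ± 0.19 and an adjusted p of 0.0101, which did not pass.

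In complex III, *UQCR-Q* was the only general subunit of the 48 with no overlap between the sexes, against 52.6% of all tested probe sets. Its Signal was 3445 to 5105 in males (median 4017), against 1093 to 2866 in females (median 1580.4), a difference of 1.32 ± 0.10, or 2.5-fold (adjusted p = 1.32e-09). It was higher in males in 6 of 6 lines, by 0.78 to 1.73. *UQCR-6.4* differed by 0.17 ± 0.071. In complex IV, none of 7 passed, and the differences ran from 0.046 for *COX7A* over 0.11 for *COX8*, 0.12 for *COX7B* and 0.16 for *COX7C* to 0.24 for *COX5A* and 0.24 for *COX5B*. In complex V, none of 10 passed. The highest were *ATPsynO* of the stalk (0.17 ± 0.087), *ATPsynE* (0.17 ± 0.080) and *ATPsynD* (0.16 ± 0.092), and the lowest were *ATPsyngamma* (0.13 ± 0.076), *ATPsynC* of the rotor ring (0.10 ± 0.075), *ATPsyndelta* (0.082 ± 0.093) and *ATPsynbeta* (-0.041 ± 0.11). At an adjusted p under 0.05, 22 of the 48 general subunits were higher in males, against 41.8% of all tested probe sets.

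The general subunits moved together from array to array, and with the 3 markers of indirect flight muscle. For each array the log2 deviations from the mean of its sex were averaged, once over the 48 general subunits and once over *fln*, *TpnC4* and *Act88F*. The other listed flight muscle genes were not part of these means. Of the 12 listed with a probe set, 6 were higher in males (background 36.0%) and 0 higher in females (background 42.3%). Their median difference was 0.36, and 0 of the 3 markers passed. In males, the general subunits ran from -0.24 in pool 2 of C1 to 0.47 in pool 2 of S1, and the 3 markers from -1.73 in pool 2 of R1 to 1.99 in pool 2 of S1. In females the general subunits ran from -0.42 in pool 1 of R2 to 0.76 in pool 2 of S1, and the markers from -2.46 in pool 1 of S1 to 2.31 in pool 2 of S1. The correlation between both means was 0.886 over 12 male arrays, 0.904 over 12 female arrays and 0.922 over the 10 female arrays outside S1 (Pearson's r, given as a description, since the 2 pools of a line share their genotype). Gene by gene, 41 of 48 general subunits in males and 46 of 48 in females had a correlation above 0.5 with the markers, against 6.03% and 14.3% of all tested probe sets. For the 17 male-limited paralogues the mean deviation in males ran from -0.28 in pool 1 of C1 to 0.13 in pool 1 of R2, and its correlation with the markers was 0.19.

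**Figure D3:**
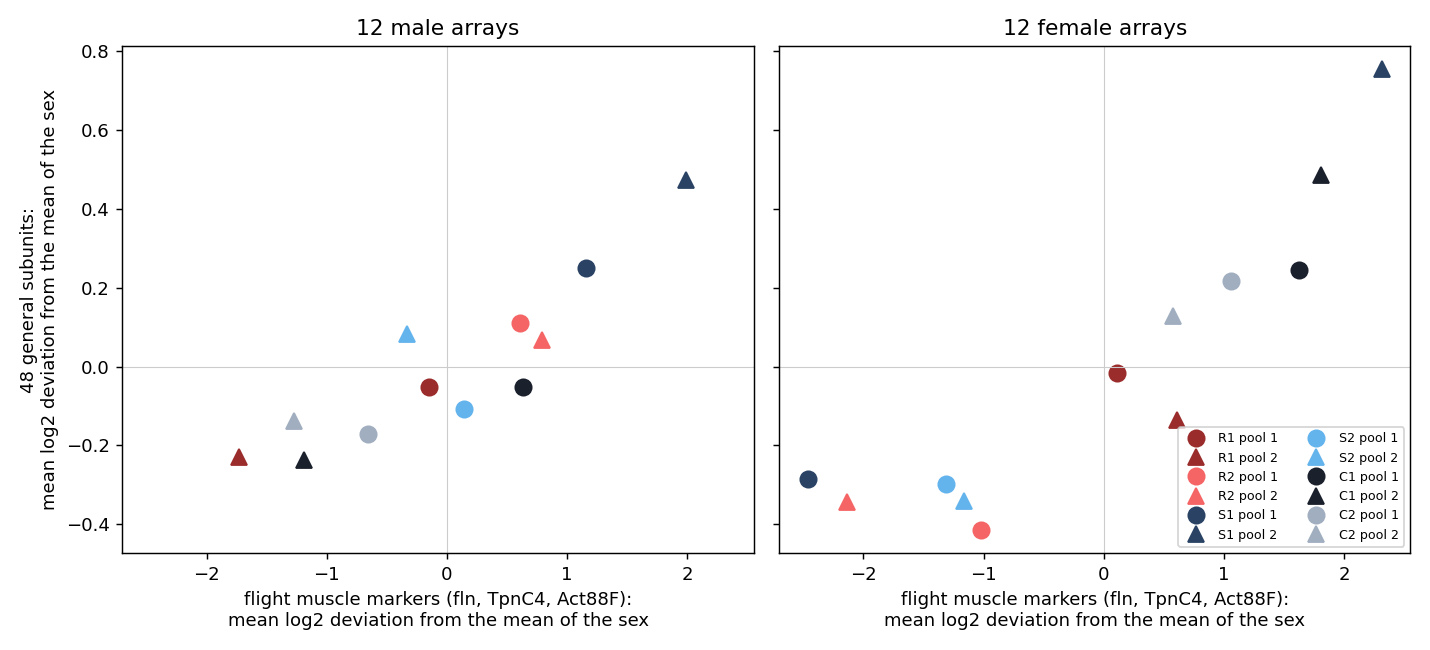
Each point is 1 array, with the mean log2 deviation of 3 flight muscle markers on the horizontal axis and that of the 48 general subunits on the vertical axis, both from the mean of the sex, in males (left) and females (right), by line and pool. The points rise together in both sexes, and the 2 pools of S1 females lie at opposite ends.

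A line effect was found for 1 of 66 members, *ND-ACP*, against 12.3% of all tested probe sets. *ND-ACP* encodes the acyl carrier protein, which is both a complex I subunit and the carrier of mitochondrial fatty acid synthesis. In males its Signal was 5275 and 4499 in R1, 6115 and 5763 in R2, 9439.6 and 10489 in S1, 4563 and 4764 in S2, 6395 and 5364 in C1 and 5249.6 and 4811 in C2. In females it was 5285 and 4919 in R1, 4456 and 4550.5 in R2, 6852 and 13216 in S1, 4033 and 3902 in S2, 6985 and 7791 in C1 and 6231 and 5956 in C2. The S1 males stood above every other male array, whereas pool 1 of S1 females lay below both pools of C1 females. The line effect had an adjusted p of 8.35e-05 from limma, and S1 exceeded S2 by 1.18 ± 0.14 on the log2 scale. Among the other 2 probe sets of the gene, 1 also passed (adjusted p = 1.50e-04) and 1 did not (0.00615). S1 males also had the highest flight muscle markers of all males, and the part of these in the result was not tested.

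The next smallest adjusted p-values of the line effect were those of *ND-20L* (0.00118), *ND-B14* (0.00447), *ND-B18* (0.00478), *COX6CL* (0.0063) and *ND-15* (0.0112), and none passed. *ND-B14*, *ND-B18* and *ND-15* are accessory subunits of complex I, and S1 minus S2 was 0.71, 0.80 and 0.64 for them. *ND-20L* and *COX6CL* were below 50 in every female array, and within males their adjusted p-values were 0.433 and 0.755. This count also rested on S1 females. Without pool 1 of S1 females, 41 members had a line effect, 39 of them general (background 17.7%), without pool 2, 6 had one (background 15.8%), and without both pools, 19 (background 14.5%). *ND-ACP* was among them each time. A line by sex interaction was found for 0 of 66 members, against 0.245% of all tested probe sets, while 26 members had an unadjusted p under 0.05 (background 22.4%). The methods' analysis of variance on Signal also found 0. In limma it was 6 without pool 1 of S1 females (background 0.767%) and 16 without pool 2 (background 0.818%).

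Because the paralogues are near background in females, the 12 male arrays were also fitted alone, a choice made after the data were seen. A line effect within males was found for 3 of 66 members, *ND-ACP*, *UQCR-14L* and *ND-51L2* (background 5.04%). *UQCR-14L* had a male Signal of 534 and 480.2 in R1, 828 and 781 in R2, 1103 and 1283 in S1, 695 and 579 in S2, 771 and 892 in C1 and 695 and 712 in C2. S1 was highest and R1 lowest, and neither overlapped with any other line (adjusted p = 3.25e-04). Its general partner *UQCR-14* did not pass in males (0.0343). *ND-51L2* had 455 and 522 in R1, 492 and 390.4 in R2, 499 and 494 in S1, 416 and 519.6 in S2, 289 and 326 in C1 and 207 and 239.6 in C2, so that all 4 control arrays lay below all 8 arrays of the selected lines (7.01e-04). *ND-51L1*, the other copy of *ND-51*, had 273 and 364 in R1, 399 and 346 in S1 and 283 and 326 in C1, and did not pass (0.336). These calls rested on few arrays. Leaving out single male arrays gave 0 to 5 members, with 0 without either pool of S1 males, and *ND-51L2* passed in 3 of these 12 fits.

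**Figure D4:**
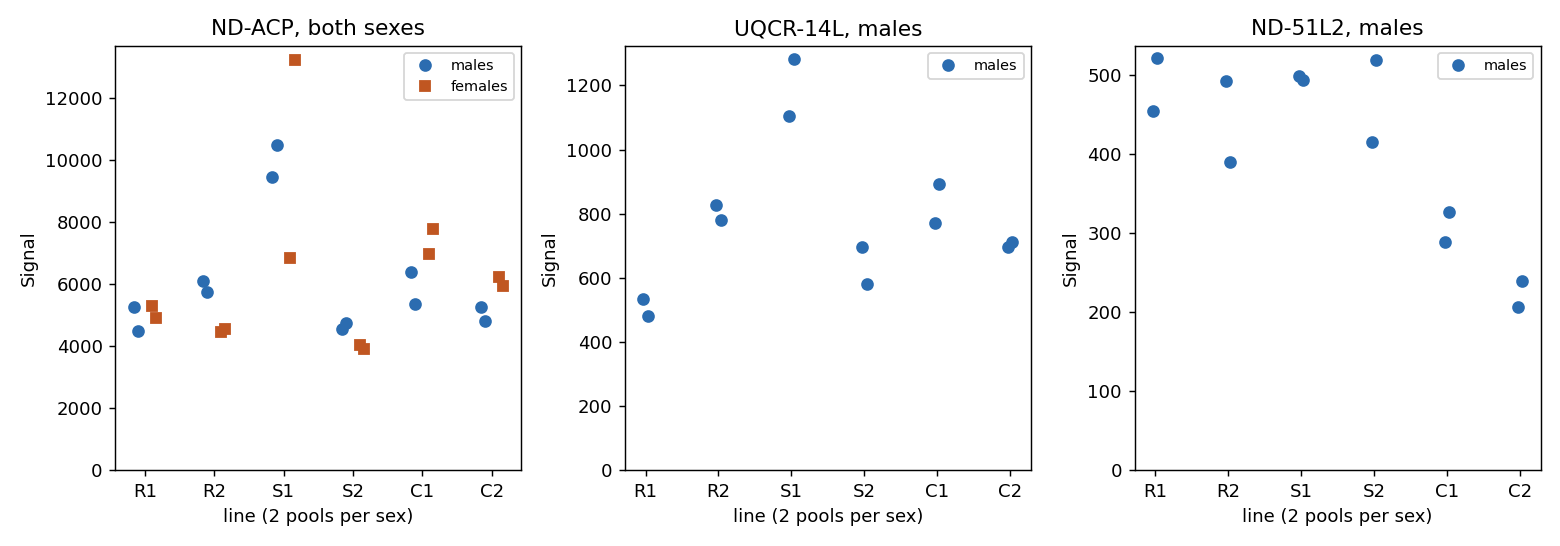
Signal on a linear axis by line, with 2 pools per line and sex, for *ND-ACP* in males (circles, left of females) and females (squares) and for *UQCR-14L* and *ND-51L2* in males. *ND-ACP* and *UQCR-14L* are highest in S1 males, and *ND-51L2* is lowest in the control lines C1 and C2.

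Between the resistant and the sensitive lines, 1 of 66 members was called, *ND-ACP*, which was lower in the resistant lines. A member was called when its line effect or interaction passed and the contrast had p under 0.05, a rule that called 3.54% of all probe sets as lower in the resistant lines. The difference was -0.35 ± 0.098 (standard error, limma). It was -0.97 for R1 minus S1 but 0.27 for R2 minus S2, and with line as a random block the call was lost. It was lost as well without both pools of S1 females, at -0.034, where 4 other members were called (background 11.2% in either direction). Without pool 1 of S1 females alone 39 members were called, 38 of them lower in the resistant lines (background 13.1%), and without pool 2 alone 5 were called (background 10.9%). The methods' analysis of variance on Signal called *UQCR-14L* in its place. Of the 48 general subunits, 44 had a difference below 0, with a median of -0.20, against 0.027 and 44.5% below 0 over all tested probe sets, and 10 had p under 0.05 (background 11.6% in this direction). The pairs of lines differed in this. The median was -0.39 for R1 minus S1, with 48 of 48 below 0 and 36 at p under 0.05 (background 11.3%), and 0.048 for R2 minus S2, with 17 of 48 below 0. Over all tested probe sets, 46.8% were below 0 for R1 minus S1 and 45.2% for R2 minus S2. The 3 flight muscle markers differed by a mean of -1.04 for R1 minus S1 and 0.23 for R2 minus S2. They do not stand for all muscle genes. Over the 12 listed flight muscle genes with a probe set, these 3 among them, resistant minus sensitive had a median of 0.012. It was -0.47 for *fln*, -0.70 for *TpnC4* and -0.049 for *Act88F*. *Mlc2* (0.30), *Prm* (0.34) and *bt* (0.21) were called higher in the resistant lines (background 8.77% in either direction). Without both pools of S1 females the resistant minus sensitive median of the general subunits was -0.054. In females alone it was -0.18 with all arrays, -0.42 without pool 1 of S1, 0.080 without pool 2 and 0.11 without both, so that its sign rested on pool 2. R1 minus S1 had a median of -0.67, -0.15 and -0.49 in the same 3 cases.

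Against the control lines, the differences of most general subunits had opposite signs in the 2 sexes, while the line by sex interaction passed for none of them. In females, resistant minus control was below 0 in 48 of 48 general subunits, with a median of -0.51, and 40 had p under 0.05 (background 14.6%). In males it was above 0 in 45 of 48, with a median of 0.11 and 0 at p under 0.05 in limma, against 4 in the fit of the 12 male arrays alone (background 9.93%). Sensitive minus control was above 0 in 48 of 48 in males, with a median of 0.33 and 17 at p under 0.05 (background 7.13%), against 41 in the fit of male arrays alone (background 9.17%). It was below 0 in 47 of 48 in females, with a median of -0.33 and 18 at p under 0.05 (background 14.1%). The last median was -0.045 without pool 1 of S1 females, -0.60 without pool 2 and -0.62 without both. By line, the mean deviation of the general subunits was 0.24 in S1 females and -0.32 in S2 females. It was 0.37 in C1 females and 0.17 in C2 females, so that S1 females were not below both control lines. The mean of the flight muscle markers had the same sign as the median in each of the 4 comparisons. Their mean difference was -1.88 for resistant minus control females, 0.50 for resistant minus control males, 1.36 for sensitive minus control males and -1.92 for sensitive minus control females, and their part in these results was not tested. The counts at p under 0.05 rest on the spread between pools, with 2 lines per group. For sensitive minus control males, limma with line as a random block gave a smallest p among general subunits of 0.064, for *UQCR-14*. All 4 comparisons share the control arrays. Their values are contrasts without the step of the line effect, which only *ND-ACP* had passed, and none is a call for the others.

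**Figure D5:**
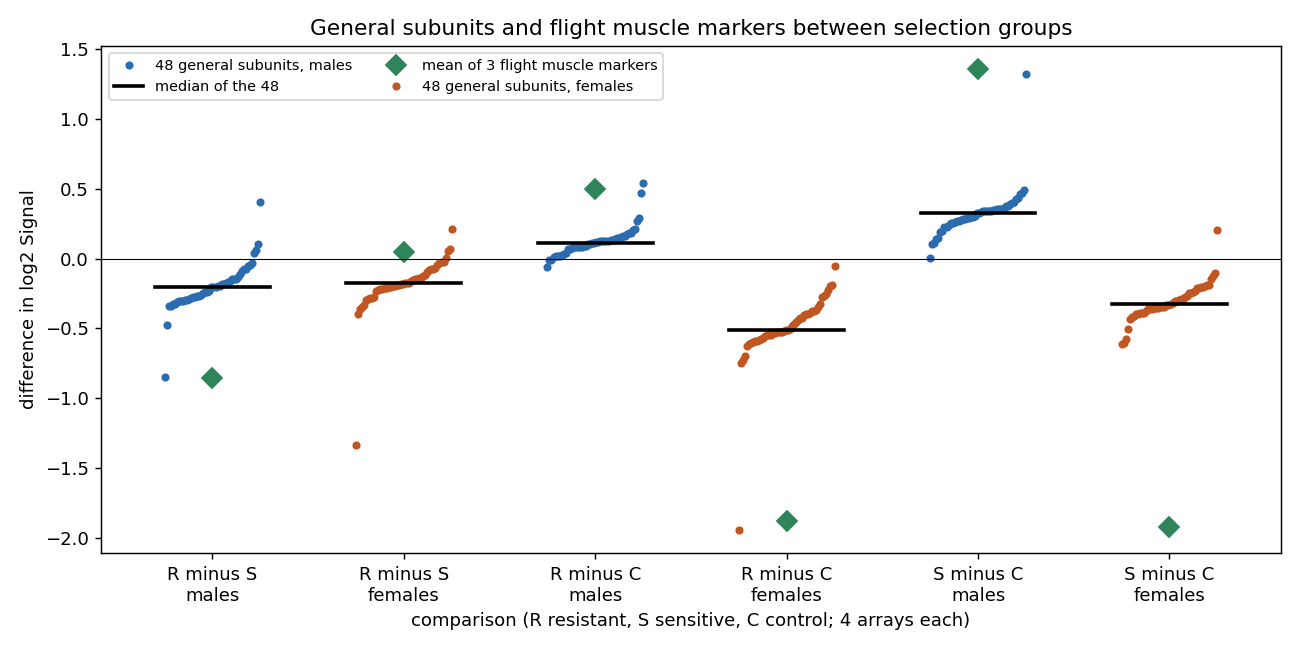
Difference in log2 Signal of each of the 48 general subunits between selection groups within males (blue) and within females (orange), 4 arrays per group, with black lines for their medians and green diamonds for the mean of *fln*, *TpnC4* and *Act88F*. Females of both kinds of selected lines lie below control females and males of the sensitive lines lie above control males, with the diamonds on the same side.

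By the calling rule with both sexes, 1 member was lower in the resistant than in the control lines, *ND-ACP* at -0.25 ± 0.098 (background 4.54%), and it too was lost with line as a random block. Within males its difference was -0.013 ± 0.14 and was not called. Between sensitive and control lines 0 members were called in limma (background 8.58%), with 3 at an unadjusted p under 0.05 (background 25.2%) and 1 called by the analysis of variance. Between lines of the same selection group, 1 member was called for S1 against S2, *ND-ACP* again (background 9.61%), 0 for R1 against R2 (background 7.27%) and 0 for C1 against C2 (background 7.21%). At an unadjusted p under 0.05 there were 2 for R1 against R2 (background 22.0%) and 4 for C1 against C2 (background 22.4%), and the analysis of variance called 1 and 0. S1 minus S2 was above 0 in 47 of 48 general subunits, while 47.2% of all tested probe sets were below 0. The median over the general subunits was 0.47, with 42 at p under 0.05 (background 20.0%), and the flight muscle markers had a mean difference of 1.42. This median was 0.72 without pool 1 of S1 females, 0.21 without pool 2 and 0.36 without both, where it came from males. The paralogues had medians of 0.042, 0.14 and 0.10 in males for resistant minus sensitive, resistant minus control and sensitive minus control lines. In the fit of male arrays alone, *UQCR-14L* was lower in the resistant than in the sensitive lines by a log2 difference of -0.45 ± 0.090, as was *ND-ACP* at -0.34 ± 0.085 (background 3.99%). For both, the line pairs had opposite signs. R1 minus S1 was -1.23 and R2 minus S2 was 0.34 for *UQCR-14L*, and for *ND-ACP* they were -1.03 and 0.35. Both genes were also called between lines of the same selection group in males. R1 minus R2 was -0.67 for *UQCR-14L* and -0.29 for *ND-ACP* (background 3.14%), and S1 minus S2 was 0.91 and 1.09 (background 3.90%). Against control males, *UQCR-14L* was lower in resistant males (-0.26 ± 0.090) and *ND-ACP* was higher in sensitive males (0.33 ± 0.085). Each of these differences came from 1 line, R1 for *UQCR-14L* and S1 for *ND-ACP*. For *UQCR-14L*, R2 males (828 and 781) lay above C2 males (695 and 712) and within the range of C1 males (771 and 892). For *ND-ACP*, S2 males (4563 and 4764) lay below every array of control males, of which the lowest was 4811. *ND-51L2* was higher than in control males by 0.82 ± 0.11 in resistant males (background 3.41%) and by 0.88 ± 0.11 in sensitive males (background 3.76%). It was also called between the control lines, with C1 minus C2 at 0.46 (background 3.10%). These standard errors rest on the spread between pools. In limma with both sexes and line as a random block, p for the same *ND-51L2* differences was 0.206 and 0.177. It was 0.738 for *UQCR-14L* in resistant minus control males and 0.249 for *ND-ACP* in sensitive minus control males. For resistant minus sensitive males it was 0.566 for *UQCR-14L* and 0.231 for *ND-ACP*.

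Other genes of oxidative phosphorylation also included male-limited copies. A list of 28 other symbols, in which a gene can stand under more than 1 name, included the partners *levy*, *cype* and *sun*. Of these symbols 22 had a probe set, 6 were higher in males (background 36.0%) and 4 higher in females (background 42.3%). *SdhAL* and *SdhBL*, copies of the flavoprotein and iron-sulphur subunits of complex II, had Signals of 399.5 to 589.9 in males (median 491), against 1.41 to 20.9 in females (median 9.88) and of 1236 to 1807 in males (median 1527), against 2.77 to 27 in females (median 5.58). *Cyt-c1L*, a copy of the cytochrome c1 subunit of complex III, had 903 to 1257 in males (median 1139.6), against 29.9 to 103 in females (median 65), whereas *Cyt-c1* had 11629 to 18735 in males (median 12914), against 8438 to 18039 in females (median 10754). *Porin2*, a channel of the outer membrane, had 1661 to 2722 in males (median 2104), against 1.72 to 48.2 in females (median 17.5), and *Ant2*, an ADP/ATP carrier, had 881 to 1433 in males (median 1172), against 71 to 142 in females (median 112). *SdhD*, a membrane anchor of complex II, was the last of the 6, at 0.46 ± 0.10. The 4 genes higher in females all encode assembly factors of cytochrome c oxidase. *Scox*, a copper chaperone, had 823 to 980.0 in males (median 880.0), against 1644 to 1947 in females (median 1782), a difference of -0.995 ± 0.031, and *Surf1* (-0.88 ± 0.043) and the copper factor *Cox11* (-0.87 ± 0.072) were close to it. These 3 kept their direction and call with quantile normalization and with medians set equal. *Cox10*, which acts in the synthesis of heme A, had -0.23 ± 0.049 and did not pass in either of these alternatives. *Cox17*, another copper chaperone, had 0.23 ± 0.063 (adjusted p = 0.00306) and passed as higher in males only under these alternatives. The list as a whole had a median of 0.26, and the lists were chosen with earlier results of these data known.

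Of 22 listed symbols of the tricarboxylic acid cycle, which feeds electrons to the respiratory chain, 16 had a probe set. Of these, 11 were higher in males (background 36.0%) and 1 higher in females (background 42.3%). The median of 2.82 lay in a gap between *Idh3b* (0.56) and *Scsalpha2* (5.09), so that it reflects the make-up of the list. *kdn*, *Fum1* and *Mdh2* had no probe set of their own. Among the 11 were *knon*, a citrate synthase copy, with 535 to 745 in males (median 608), against 3.25 to 11.7 in females (median 4.56), and the fumarase copies *Fum2*, *Fum3* and *Fum4*, of which *Fum3* had 743 to 1033 in males (median 911), against 1.22 to 6.71 in females (median 2.75). *mAcon2* had 514 to 1012 in males (median 761), against 3.66 to 37.7 in females (median 12.6), whereas *mAcon1*, the general aconitase, had 12749.8 to 20281 in males (median 13922), against 9149.6 to 21239 in females (median 11227) and did not pass as deposited (adjusted p = 0.0068), though it did under both other scalings. *Scsalpha2*, a subunit of succinyl-CoA synthetase, had 1349 to 1845 in males (median 1635), against 5.51 to 82.6 in females (median 62.1), while *Scsalpha1* had -0.044 ± 0.059 and did not pass as deposited, though it was called lower in males with quantile normalization. *ScsbetaG*, the subunit for GDP, was the 1 gene higher in females, at -0.61 ± 0.068, and *ScsbetaA*, that for ADP, was higher in males, at 0.42 ± 0.096. *ScsbetaA*, *Idh3b* and *Ogdh* did not pass with quantile normalization, with adjusted p-values of 0.00242, 0.00191 and 0.0026.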

How the data were processed

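Whole-body RNA of 24 pools was hybridized to Affymetrix Drosophila 2.0 arrays, and the values deposited by the authors are intensities, namely the Signal of each probe set from Affymetrix Microarray Suite version 5 (MAS5), with a 2% trimmed mean of 500.01 to 500.02 on every array. Of 18952 probe sets, 183 controls were left out. Line, sex and pool came from the sample labels. The 11857 probe sets with a Signal of 50 or more on at least 12 arrays were tested, after a floor of 1 and a log2 transformation. The fit used limma 3.58.1 in R 4.3.3, with 12 means of line and sex, an intensity trend and Benjamini-Hochberg adjustment, and was tested on simulated data. Calls required an adjusted p under 0.001, and for contrasts a p under 0.05 after a line effect or interaction. Pairs were compared with an exact sign-flip test over lines. Alternatives were another normalization, scale, filter, probe set or model, and leaving out arrays. The genes named with values were all paralogues and partners, the 3 highest and 3 lowest other members by sex in each complex, those called between resistant and sensitive lines and the 6 smallest line p-values. Members and lists were chosen with earlier results of these data known. *ND-B17*, the second probe set of *COX7C* and the listed genes outside the members were named after their values were seen. The fit of males alone and the contrast medians without pools of S1 females were added after the data were seen. The array number, 2 per line and sex, limits the precision.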

Additional observations from a re-analysis of the deposited data

Results flagged for a closer look

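The mean log2 deviation of the 48 general subunits was 0.76 in pool 2 of S1 females, far from the other 3 arrays of sensitive females, which lay between -0.34 and -0.29. The gap to the nearest of these was 0.95 of the range of the 4 arrays, above Dixon's 95% critical value for 4 values. The flight muscle markers *fln*, *TpnC4* and *Act88F* had a mean deviation of 2.31 in the same array, against -2.46 in pool 1 of S1 females, and their part in the result was not tested. In all, 21 groups of 4 arrays were examined in this way and 1 stood out, where chance gives about 1 in 20. For no member did the resistant minus sensitive difference pass a test of its difference between the sexes (smallest adjusted p = 0.597 in limma).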

How the results depend on the processing

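The paralogue results moved least, but with female values near background the sign of most pairs was set in advance. Their constancy is therefore no separate support. The pair comparison gave 15 of 16 pairs under log2(Signal + 50), with medians set equal, with the dimmest probe set and in every omission of an array or a line, and 16 with quantile normalization, and leaving out single arrays gave 17 to 18 paralogues higher in males. Their median difference was 5.85 with quantile normalization, 3.79 with log2(Signal + 50) and 6.02 to 6.20 without single arrays. The counts of general subunits were less stable. With quantile normalization, 13 were higher in males and 3 higher in females, and *COX7A* (-0.17) and *UQCR-11* (-0.95) turned to the female side. The cause was not tested. With medians set equal 21 were higher in males, with the analysis of variance on Signal 3, and without both pools of S1 females 18. Leaving out single arrays gave 5 to 35 general subunits higher in males and 0 to 1 higher in females (*ND-B12*, without pool 2 of S2 males), with medians of 0.092 to 0.26.

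For lines, quantile normalization gave 2 members by line, 2 called between resistant and control, 1 between sensitive and control, 2 between S1 and S2 and 1 between C1 and C2. Without the variance trend there were 2 by line and 1 between C1 and C2. The analysis of variance called 1 between sensitive and control and 1 between R1 and R2. With line as a random block there were 0 between resistant and sensitive and 0 between resistant and control. Without both pools of S1 females there were 19 members by line, 5 by line and sex, 4 between resistant and sensitive, 19 between resistant and control, 16 between sensitive and control, 17 between S1 and S2, 3 between R1 and R2 and 9 between C1 and C2.

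Leaving out single arrays gave 1 to 41 members by line, 0 to 16 by line and sex, 0 to 5 by line within males, 1 to 39 between resistant and sensitive, 0 to 36 between resistant and control, 0 to 21 between sensitive and control, 1 to 40 between S1 and S2, 0 to 4 between R1 and R2 and 0 to 12 between C1 and C2, and the median resistant minus sensitive difference of the general subunits was -0.34 to -0.065. All the highest counts came without a pool of S1 females, except within males, where it came without pool 2 of C1 males. The call between resistant and control was lost without pool 2 of R1 males and without pool 1 of C1 males.

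The pool numbers did not pair the arrays, since the correlation of deviations between same-numbered pools was -0.15 to 0.18 over 66 pairs of groups, with 4 over 0.1. With the pool number as a block (replicate block), 5 general subunits and 17 paralogues were higher in males and 1 member differed by line, and no call changed. A minimum Signal of 100 lost 1 member, *UQCR-11*. Probe sets near background limit the female values of the paralogues to bounds. Hybridization of a general transcript to a paralogue's probes, or the reverse, was not tested.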
